A study of Mus musculus with 35 samples.

Results

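CD8+ T cells that had spent 24 h at pH 6.6 with interleukin-2 (IL-2) were compared with the same kind of cells at the start of the experiment (0 h). The 2 groups made up 10 of the 35 RNA-seq libraries of the series, with 5 libraries each, and were chosen by their labels alone. The cells were OT-I cytotoxic T lymphocytes (CTLs), mouse CD8+ T cells that carry a transgenic receptor for an ovalbumin peptide, primed with antibodies to CD3 and CD28 and then expanded with IL-2. The 0 h cells had received no treatment at the start of the experiment, and the pH of the medium they had been in is not given in the sources used here. The acid group had then been cultured for 24 h at pH 6.6 with IL-2 at 200 IU/mL. The cultures at set pH were in low-glucose DMEM with glutamine, pyruvate, serum and non-essential amino acids at 37 °C. Whether the 0 h cells had been in the same medium is not established, and a part of any change of medium in the differences from 0 h was not tested. Dead cells were removed on Ficoll before RNA extraction, so the RNA is that of the cells that were alive at collection. Cells kept for 24 h at pH 7.4 with IL-2, and cells kept at pH 6.6 without IL-2, 5 libraries each, were used to show where the acid group differed from cells with the same cytokine or the same pH. The remaining groups, also cultured for 24 h and with 5 libraries each, were pH 7 with IL-2, pH 7 without IL-2 and pH 7.4 without IL-2, and they are used below for ribosome biogenesis. The question was what a CTL becomes within a day when it is moved into acid medium while its growth factor is present.

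IL-2 binds a receptor made of an alpha, a beta and a common gamma chain, and the kinases JAK1 and JAK3 on that receptor phosphorylate the transcription factor STAT5. In activated CD8+ T cells STAT5, together with the mTORC1 kinase and c-Myc that act downstream of IL-2, maintains cytotoxic granule genes, nutrient transporters, glycolysis and division. Tumors and inflamed tissue are often acid because glycolytic cells release lactate and protons, and T cells that lack IL-2 signals normally leave the cell cycle, switch on FOXO target genes and return to a resting or memory-like program.

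The 10 libraries held between 16721319 and 27400369 reads on genes, the lowest being replicate 1 of the acid group. Reads that aligned to several places and were not counted made up 39.3 to 48.3% of the entries listed at 0 h and 36.2 to 37.9% in the acid group, and mitochondrial genes took 1.34 to 2.53% and 0.896 to 1.15% of counts. Summed CPM (counts scaled to a common library size, with sizes corrected by the trimmed mean of M values) of 10 CD8 T cell markers was 8905 to 9754 at 0 h and 10265 to 11119 in the acid group, with no marker at 0. Of 8 B cell markers Ms4a1, Pax5 and Cd22 were at 0 in both groups, while the list summed to 170.3 to 323 CPM at 0 h and 185 to 407 CPM in the acid group, of which the immunoglobulin gene Ighm took 167 to 317 and 184 to 405 CPM. The 4 gamma-delta T cell markers summed to 399 to 547 CPM and 479.9 to 689 CPM, with Trdc at 386 to 534 and 466 to 664 CPM. The CD4 T cell list summed to 41.0 to 63.8 CPM at 0 h and 20.2 to 32.4 CPM in the acid group. Among the myeloid, dendritic and NK cell lists, Csf1r, S100a8, S100a9, Fcgr1, Siglech, Clec9a, Ncr1 and Klra4 were at 0 in the acid group. At 0 h, S100a8, Fcgr1, Siglech, Klra8 and Klra9 were at 0. Myeloid and dendritic cell lists were higher in the acid group in sum, from 9.19 to 11.9 CPM at 0 h to 16.7 to 31.5 CPM and from 3.75 to 7.94 CPM to 22.1 to 31.5 CPM, mostly through Cd68, Zbtb46 and Itgax. The NK cell list was lower, from 104 to 116 CPM to 24.3 to 43.3 CPM. The part of these cells in the results was not tested.

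Some libraries stood apart within their group. At 0 h, replicates 2 and 3 had low levels of hypoxia-inducible genes, with a mean log2 CPM over 23 such genes of 5.87 and 5.80, against 7.0, 6.94 and 7.17 in replicates 1, 4 and 5. In the acid group replicate 1 was the shallowest library and differed from the others for several genes named below, and replicates 4 and 5 held more RNA of several cytokine-dependent genes. Counts that rest on these libraries are also given without them, an alternative chosen after seeing the data. The labels do not say that replicates came from separate mice or cultures, so p-values measure the spread between these libraries. In bulk RNA, fewer cells that express a gene and less of its RNA per cell cannot be told apart.

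Most expressed genes differed after 24 h at pH 6.6 with IL-2. Of 13819 genes tested, 9463 (68.5%) passed an adjusted p of 0.05 in edgeR's quasi-likelihood test with Benjamini-Hochberg adjustment, 4210 (30.5%) higher and 5253 (38.0%) lower than at 0 h. The median log2 fold change over all genes tested was -0.08. At least a 2-fold change was seen for 1224 of the higher and 1910 of the lower genes. In 2553 genes (18.5%) all 5 acid libraries were above all 5 at 0 h, and in 3373 genes (24.4%) all 5 were below. Without 0 h replicates 2 and 3, 4515 genes were higher and 4763 lower. The excess of lower genes depended on the scaling of the libraries: with RLE scaling 4634 were higher and 4817 lower, with a median of -0.02. Cells at pH 7.4 with IL-2 also differed from 0 h, in 8282 genes (59.9%), 4009 (29%) higher and 4273 (30.9%) lower. The acid group differed from the pH 7.4 group with IL-2 in 10539 genes (76.3%), 4889 (35.4%) higher and 5650 (40.9%) lower. It differed from cells at pH 6.6 without IL-2 in 3278 genes (23.7%), 1819 (13.2%) higher and 1459 (10.6%) lower. Without replicate 1 the counts were 1727 higher and 752 lower, without replicate 2 they were 1819 and 805, and without replicate 4 they were 1356 and 763, 2119 in all. With a log2 fold change of at least 1 they were 474 higher and 42 lower. On the first principal component, which held 56.9% of the variance of the libraries, the acid group lay between 12.3 and 33.9, the 0 h cells between -57.9 and -44.3, cells at pH 7.4 with IL-2 between -96.6 and -83.3, and cells at pH 6.6 without IL-2 between 53.7 and 64.1. These comparisons share libraries, so their values are given side by side. The genes are described below in 28 lists of pathways and cell functions, which hold 789 different genes, of which 768 passed the filter on low counts and were tested. The lists were chosen with earlier results of these data known, so their counts are descriptions, and no list was tested as a set.

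**Figure D1:**
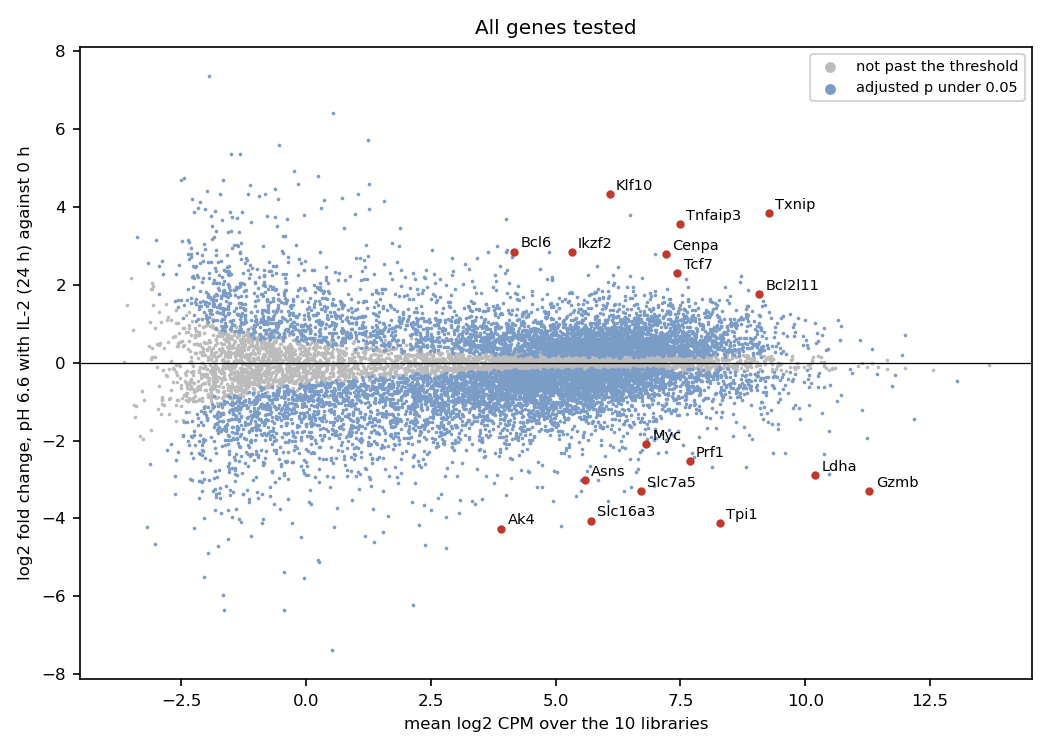
Log2 fold change of pH 6.6 with IL-2 (24 h) against 0 h for the 13819 genes tested, against mean log2 CPM over the 10 libraries; blue points passed an adjusted p of 0.05. Klf10, Txnip and Tnfaip3 stand high among well expressed genes, and Tpi1, Slc16a3, Ak4 and Gzmb stand low.

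**Figure D2:**
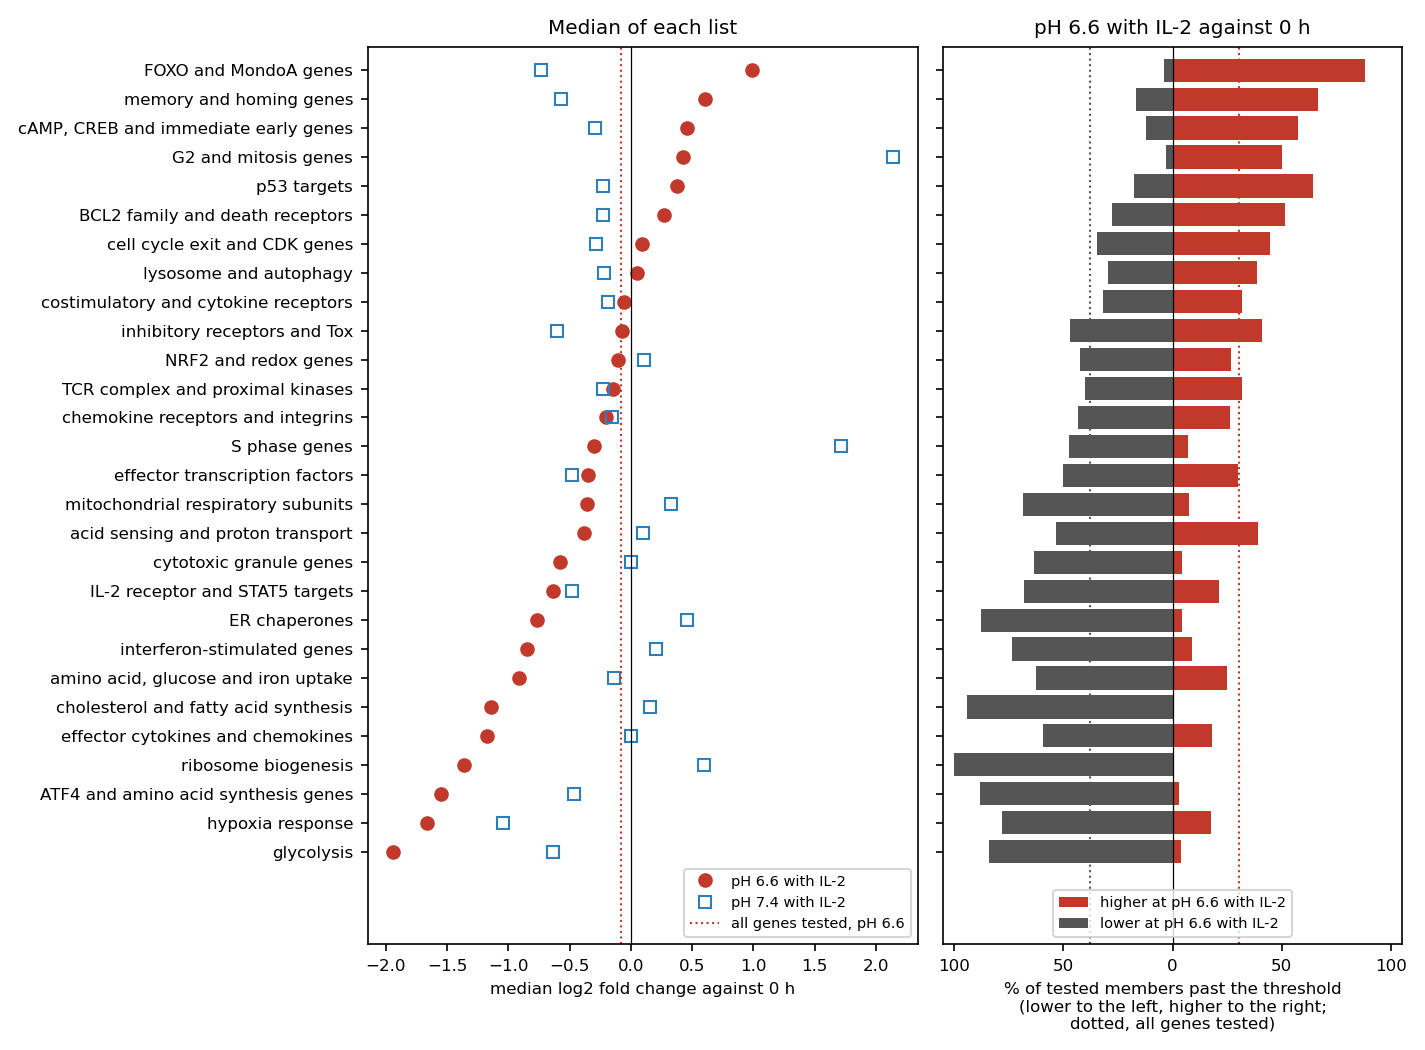
Median log2 fold change against 0 h of the tested members of 28 gene lists (left; filled circles, pH 6.6 with IL-2; open squares, pH 7.4 with IL-2), and the share of members past an adjusted p of 0.05 at pH 6.6 with IL-2 (right, in percent, lower to the left and higher to the right). Dotted lines give the values over all 13819 genes tested; glycolysis lies lowest and the FOXO and MondoA genes highest at pH 6.6.

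RNA of the alpha and beta chains of the IL-2 receptor was lower after a day at pH 6.6 with IL-2 in the medium. Of 28 genes of IL-2 receptor signalling and STAT5 targets, 6 rose and 19 fell, where 30.5% and 38.0% of all genes tested did, with a median log2 fold change of -0.64 beside -0.08 over all genes. Values are given throughout in CPM in the order of replicates 1 to 5, then the log2 fold change ± SE from the fit. Il2ra, the alpha chain that gives high affinity (chr2:11642807-11693193, plus strand, GRCm38), held 432, 563, 597, 686 and 576 CPM at 0 h and 387, 350.3, 394, 334 and 342 CPM in the acid group. It fell (log2 fold change -0.66 ± 0.11, adjusted p = 1.48e-06), and the groups did not overlap. The beta chain gene Il2rb (chr15:78479256-78495271, minus strand) went from 942, 1748, 1496, 1291 and 1158 CPM to 558, 609, 504, 729.7 and 680.2 CPM. It fell too (log2 fold change -1.09 ± 0.10, adjusted p = 1.31e-11), with replicate 2 highest at 0 h. The gamma chain gene Il2rg held 311 ± 33.2 CPM (SD, n = 5) and 299.9 ± 25.8 CPM, with a log2 fold change of -0.056 that did not pass (adjusted p = 0.517), and 72.5% of its windows of 50 bases were unique to it. With IL-2 at pH 7.4 the log2 fold change from 0 h of Il2ra was -0.058 (adjusted p = 0.657) and that of Il2rb -0.31 (adjusted p = 0.00635).

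Among the genes of the kinases and STAT5 directly below the receptor, Jak1 rose (log2 fold change 1.01 ± 0.066, adjusted p = 1.14e-14), from 837 ± 108 to 1687 ± 251 CPM, and Stat5b rose (log2 fold change 0.48 ± 0.068, adjusted p = 2.47e-07). Jak3 held 404 ± 82.1 and 412 ± 59.9 CPM, a log2 fold change of -0.0044 that did not pass.

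The targets of STAT5 were mostly lower than at 0 h and yet higher than in cells without IL-2 at the same pH. The list of 28 genes was mostly lower at pH 7.4 with IL-2 too. There 20 were lower than at 0 h and 0 higher, beside 30.9% and 29% of all genes, with a median of -0.48. Between the acid group and pH 7.4 with IL-2, 9 were higher and 13 lower. The shares over all genes were 35.4% and 40.9%, and the list median was -0.10. Cish, a STAT5-induced feedback inhibitor, held 585, 734, 664, 514 and 483 CPM at 0 h and 357, 355, 305, 519 and 472 CPM in the acid group, and 71.1, 105, 103, 129.7 and 132 CPM at pH 6.6 without IL-2. Replicate 4 of the acid group lay within the 0 h range, while every library with IL-2 lay above every library without it. Its fall from 0 h (log2 fold change -0.61 ± 0.17, adjusted p = 0.00214) no longer passed without replicate 2 (adjusted p = 0.0568) or without 0 h replicates 2 and 3 (adjusted p = 0.166), in a range over the alternatives of 0.000365 to 0.166. Against pH 6.6 without IL-2 it was higher by 1.90 ± 0.17 on the log2 scale (adjusted p = 1.08e-09). Pim2, a survival kinase, held 385, 312, 280.4, 299 and 395 CPM at 0 h and 85.8, 55.5, 56.8, 73.2 and 66.4 CPM in the acid group. It fell well clear of its spread (log2 fold change -2.31 ± 0.14, adjusted p = 1.34e-15). The feedback inhibitor Socs1 fell (log2 fold change -1.34 ± 0.16, adjusted p = 1.33e-08) and remained above the level without IL-2 by 1.85 ± 0.17 on the log2 scale (adjusted p = 1.28e-09). Socs3 went the other way, from 45.4, 30.8, 25, 28.5 and 27.3 CPM to 40.4, 48.7, 48.4, 111 and 82.7 CPM (log2 fold change 1.02 ± 0.19, adjusted p = 1.82e-05), with replicates 4 and 5 highest. The cytokine gene Lif was 78.8, 140.1, 180.1, 69.9 and 71.2 CPM at 0 h and 14, 11.6, 9.82, 48.9 and 52.6 CPM in the acid group. Lif fell (log2 fold change -2.34 ± 0.46, adjusted p = 6.55e-05), and replicates 4 and 5 of the acid group held more than 3 times the level of the other 3; with only the groups compared in the fit the call was lost (adjusted p = 0.073, the highest of the alternatives, from 9.16e-07). The D-type cyclin genes Ccnd2 (log2 fold change -1.20 ± 0.10, adjusted p = 6.19e-12) and Ccnd3 (log2 fold change -1.32 ± 0.12, adjusted p = 2.44e-11), which link IL-2 to entry into the cell cycle, both fell. Compared with pH 6.6 without IL-2, 16 of the 28 genes were higher and 2 lower, beside 13.2% and 10.6% of all genes, with a median of 0.37.

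**Figure D3:**
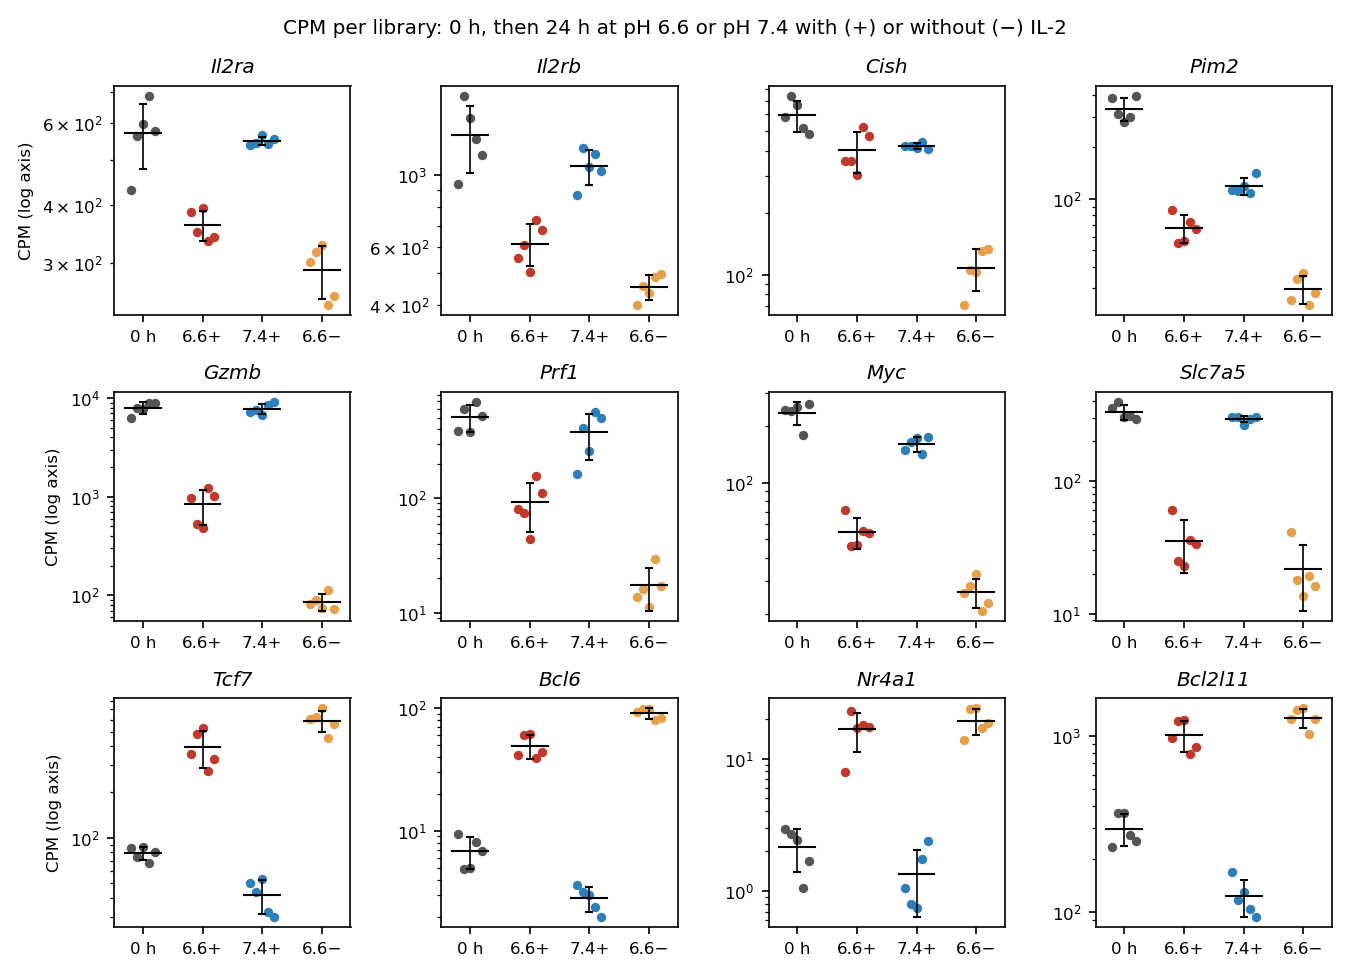
CPM of 12 genes on a log axis in single libraries at 0 h (grey), at pH 6.6 with IL-2 (red), pH 7.4 with IL-2 (blue) and pH 6.6 without IL-2 (orange); bars give the mean and SD of 5 libraries. Gzmb at pH 6.6 with IL-2 lies between the 0 h level and the level without IL-2, and Tcf7, Bcl6, Nr4a1 and Bcl2l11 lie above 0 h at pH 6.6 and at or below the 0 h range at pH 7.4.

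Cytotoxic granule RNA fell. Of 22 granule genes 14 fell and 1 rose, beside 38.0% and 30.5% of all genes, with a median log2 fold change of -0.58. Gzmb (ENSMUSG00000015437, chr14:56258838-56262260, minus strand) encodes granzyme B, the protease that starts death in the target cell. Its 0 h libraries held 6323, 7856, 7799.5, 8916 and 8894 CPM and its acid libraries 976, 529, 482, 1215 and 1023 CPM. Every acid library was far below every 0 h library (log2 fold change -3.30 ± 0.18, adjusted p = 1.95e-16), and replicates 2 and 3 were lowest. In cells held at pH 7.4 with IL-2 the level was 7796 ± 935 CPM (SD, n = 5), a log2 fold change of -0.039 that did not pass (adjusted p = 0.855). Without IL-2 at pH 6.6 Gzmb was 86.5 ± 16.9 CPM, so the acid cells with IL-2 held more by 3.24 ± 0.18 on the log2 scale (adjusted p = 1.04e-14).

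Prf1 encodes perforin, which lets granzymes into the target cell, and held 387, 603, 376, 686 and 521 CPM at 0 h and 79.7, 73.5, 43.5, 155 and 111 CPM in the acid group. The groups did not overlap, and replicate 4 was highest in both (log2 fold change -2.52 ± 0.17, adjusted p = 3.56e-14). Gzma (log2 fold change -0.82 ± 0.12, adjusted p = 2.85e-07) and the granule membrane gene Nkg7 (log2 fold change -1.01 ± 0.091, adjusted p = 1.68e-11) fell too. Gzmd and Gzme, neighbouring granzyme genes with 78.1% and 79.4% unique windows, fell with overlap between the groups (log2 fold change -1.28 ± 0.17, adjusted p = 6.18e-08 and log2 fold change -1.70 ± 0.19, adjusted p = 2.49e-09) and are uncertain because reads shared between copies were not counted. Srgn, the proteoglycan that packs granule contents, was the member that rose (log2 fold change 0.49 ± 0.088, adjusted p = 1.05e-05). Genes of granule transport and exit differed little: Lamp1 was 236 ± 6.06 CPM at 0 h and 238 ± 3.75 CPM in the acid group, and Unc13d 198 ± 30.5 and 199 ± 20.3 CPM.

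Secreted cytokine genes were lower as well, though most were low at 0 h already. Of 22 tested cytokine and chemokine genes 13 fell and 4 rose, beside 38.0% and 30.5% of all genes, with a median of -1.18. Under the stricter filter, which kept 16 of them, 8 fell and the median was -0.41. Ifng held 5.79, 13.6, 15.6, 10.4 and 11.5 CPM at 0 h and 2.14, 2.60, 1.97, 9.09 and 4.66 CPM in the acid group. It fell (log2 fold change -1.62 ± 0.27, adjusted p = 4.08e-06), with replicate 4 of the acid group within the 0 h range. Lta, a lymphotoxin gene, fell without overlap (log2 fold change -2.40 ± 0.12, adjusted p = 9.11e-18), and Il24 fell from 6.05 ± 2.55 to 0.921 ± 0.421 CPM. Il2 itself was not tested, with at most 4 reads in a 0 h library and 8 in an acid library. Ccl5, a chemokine of memory and effector CD8+ T cells, rose from 48.4 ± 6.06 to 69.3 ± 11.6 CPM (log2 fold change 0.50 ± 0.11, adjusted p = 0.000198), and the death ligand gene Tnfsf10 rose (log2 fold change 0.91 ± 0.13, adjusted p = 1.92e-07).

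Among 20 effector transcription factor genes 6 rose and 10 fell, beside 30.5% and 38.0% of all genes, with a median of -0.35. At pH 7.4 with IL-2, 4 were higher and 10 lower than at 0 h, beside 29% and 30.9% of all genes, with a median of -0.48. Between the acid group and pH 7.4 with IL-2, 8 were higher and 8 lower. The shares over all genes were 35.4% and 40.9%, and the list median was 0.03. Id2, Eomes, Irf8 and Prdm1, all regulators of effector differentiation, fell with log2 fold changes of -0.94, -0.91, -1.52 and -0.81. Tbx21, which encodes T-bet, fell from 22.2 ± 4.37 to 15.8 ± 2.58 CPM (log2 fold change -0.51 ± 0.13, adjusted p = 0.000554), by less without replicate 5 (-0.34). Ikzf2 (Helios, chr1:69531214-69687245, minus strand) was among the 15 largest rises of well expressed genes. It held 14.8, 12.3, 13.1, 20.2 and 15 CPM at 0 h and 95.7, 137, 149, 79.4 and 91.5 CPM in the acid group (log2 fold change 2.83 ± 0.17, adjusted p = 3.58e-15). After 24 h at pH 7.4 with IL-2 it moved the other way (log2 fold change -1.29 ± 0.18, adjusted p = 3.04e-07). Stat4 (log2 fold change 1.05 ± 0.092, adjusted p = 7.99e-12) and Rora (log2 fold change 1.06 ± 0.16, adjusted p = 5.45e-07) rose too, the former with 78.3% unique windows.

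Genes of resting and memory T cells rose. Of 30 memory and homing genes 20 rose and 5 fell, beside 30.5% and 38.0% of all genes, with a median of 0.60. In 14 of them, beside 18.5% of all genes, all acid libraries were above all 0 h libraries. At pH 7.4 with IL-2, 5 of them were higher and 22 lower than at 0 h, beside 29% and 30.9% of all genes, with a median of -0.57. Tcf7, which encodes TCF1, the transcription factor of naive and stem-like memory cells (chr11:52252371-52283014, minus strand), held 85.8, 74.3, 86.9, 67.6 and 80.1 CPM at 0 h. After 24 h at pH 6.6 with IL-2 it held 356, 481, 529, 275 and 332 CPM, above every 0 h library (log2 fold change 2.29 ± 0.093, adjusted p = 2.23e-19). With IL-2 at pH 7.4 Tcf7 fell (log2 fold change -0.94 ± 0.091, adjusted p = 1.61e-10). Bcl6, a repressor that favours memory precursors and opposes Prdm1, went from 9.39, 4.91, 4.94, 8.14 and 6.91 CPM to 41.4, 60.8, 61.1, 39.5 and 43.7 CPM (log2 fold change 2.85 ± 0.14, adjusted p = 2.8e-17). Its 0 h values were lowest in replicates 2 and 3, and its level without IL-2 at pH 6.6 was higher still, at 90.8 ± 8.57 CPM (SD, n = 5). Receptors for lymph node entry and exit rose: Ccr7 (log2 fold change 1.25 ± 0.20, adjusted p = 2.76e-06, 0.83 without 0 h replicates 2 and 3) and S1pr1 (log2 fold change 1.28 ± 0.12, adjusted p = 2.07e-11). Il7r, the receptor of the survival cytokine IL-7, remained low, at 3.99, 1.87, 2.53, 3.62 and 2.19 CPM at 0 h and 10.3, 6.80, 5.41, 4.23 and 4.62 CPM in the acid group, all of the latter above the former (log2 fold change 1.12 ± 0.18, adjusted p = 2.22e-06). The members did not move as a block: Klf2, which drives S1pr1 in resting cells, fell (log2 fold change -0.68 ± 0.14, adjusted p = 9.63e-05), and Cxcr3 fell (log2 fold change -1.09 ± 0.11, adjusted p = 4.75e-10).

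Of 17 tested inhibitory receptor genes 7 rose and 8 fell, beside 30.5% and 38.0% of all genes. Nt5e, the ectoenzyme CD73 that makes adenosine, rose most of those named (log2 fold change 2.15 ± 0.10, adjusted p = 2.53e-18), from 93.9 ± 19.6 to 425 ± 103 CPM. Ctla4 held 228, 131, 142, 233 and 228 CPM at 0 h and 331, 427, 512, 318 and 339 CPM in the acid group, a rise (log2 fold change 1.0 ± 0.17, adjusted p = 6.63e-06). Pdcd1 (PD-1) rose (log2 fold change 0.96 ± 0.12, adjusted p = 3.54e-08), and Cd101 rose (log2 fold change 2.09 ± 0.12, adjusted p = 2.31e-16). Havcr2 (TIM-3, log2 fold change -1.44 ± 0.13, adjusted p = 2.11e-11), Cd160 (log2 fold change -1.46 ± 0.12, adjusted p = 2.16e-12), Lag3 (log2 fold change -1.01 ± 0.13, adjusted p = 4e-08) and Tox (log2 fold change -1.23 ± 0.15, adjusted p = 1.01e-08) fell.

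Of 25 costimulatory and cytokine receptor genes 8 rose and 8 fell, near the 30.5% and 38.0% of all genes. Tnfrsf9, which encodes 4-1BB, held 1085, 950.0, 873, 1368 and 1532 CPM at 0 h and 188, 144, 118, 239.6 and 230.2 CPM in the acid group. It fell in every pair (log2 fold change -2.67 ± 0.15, adjusted p = 1.81e-16), and Tnfrsf8 (CD30) fell as well (log2 fold change -2.80 ± 0.18, adjusted p = 7.18e-15). The interferon-gamma receptor genes Ifngr1 (log2 fold change 1.10 ± 0.084, adjusted p = 3.36e-13) and Ifngr2 (log2 fold change 1.42 ± 0.12, adjusted p = 2.26e-12) rose. Of 25 genes of the T cell receptor complex and its kinases 8 rose and 10 fell, close to the 30.5% and 38.0% of all genes. The number that fell was 6 without 0 h replicates 2 and 3, 4 without replicate 2 or with only the groups compared, and 14 without replicate 4. Cd3d (log2 fold change -0.88 ± 0.11, adjusted p = 3.99e-08) and the adaptor gene Lat (log2 fold change -0.80 ± 0.087, adjusted p = 1.17e-09) fell. Negative regulators went both ways: Cblb (log2 fold change 0.92 ± 0.077, adjusted p = 3.35e-12) and Ptpn22 (log2 fold change 0.90 ± 0.077, adjusted p = 5.7e-12) rose, while Ptpn6 fell (log2 fold change -1.03, -1.15 to -0.85 over the alternatives). Cd8a held 1092 ± 53.9 and 1046 ± 159 CPM. Of 23 tested chemokine receptor and integrin genes 6 rose and 10 fell, again near the shares over all genes, with the integrin genes Itga1 (log2 fold change 1.63 ± 0.13, adjusted p = 6.83e-13) and Itga4 (log2 fold change 1.59 ± 0.20, adjusted p = 5.78e-08) higher.

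Cell division genes differed from 0 h by small amounts at pH 6.6 with IL-2 and were higher at pH 7.4 with IL-2. Of 42 S phase genes 3 were higher and 20 lower than at 0 h, beside 30.5% and 38.0% of all genes, with a median of -0.30. Without 0 h replicates 2 and 3 the counts were 6 and 12. Without replicate 1, 7 were higher, and without replicate 2, 13 were lower. Leaving out replicate 4 gave 1 higher and 26 lower, and leaving out replicate 5 gave 2 and 24. The mean log2 CPM of the list fell in replicates 1 to 3. In replicate 4 it was 5.09 at 0 h and 5.30 in the acid group, and in replicate 5 it was 5.35 in both. Against pH 7.4 with IL-2 all 42 were lower, beside 40.9% of all genes, with a median of -2.15. At pH 7.4 with IL-2 all 42 were higher than at 0 h, beside 29% of all genes. Pcna, the clamp of the replication fork, held 155, 197, 217, 164 and 241 CPM at 0 h, 90.1, 94.1, 105, 129.6 and 137 CPM in the acid group and 441, 495, 502, 453 and 500.4 CPM at pH 7.4 with IL-2. It was lowest in the acid libraries and highest at pH 7.4, with no overlap between these 3 groups (log2 fold change -0.81 ± 0.10, adjusted p = 1.53e-08 from 0 h). Mcm2, a subunit of the replicative helicase, held 106 ± 30.4, 71.9 ± 15.1 and 376 ± 23.6 CPM in the same order of groups, and its fall from 0 h (log2 fold change -0.54 ± 0.13, adjusted p = 0.000322) did not pass without 0 h replicates 2 and 3 (adjusted p = 0.15, the highest of the alternatives, from 4.82e-05). Lig1, which joins Okazaki fragments, rose (log2 fold change 0.62 ± 0.087, adjusted p = 1.75e-07). Against pH 6.6 without IL-2, 32 of the 42 were higher, beside 13.2% of all genes, with a median of 0.67.

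G2 and mitosis genes went slightly the other way. Of 36 such genes 18 rose and 1 fell from 0 h, beside 30.5% and 38.0% of all genes. The median was 0.43 (0.27 without 0 h replicates 2 and 3). Cenpa, the histone variant that marks centromeres (chr5:30666777-30674830, plus strand), stood out with 84.5, 48.3, 52.5, 45.8 and 55.1 CPM at 0 h and 306, 501, 479, 353 and 359.8 CPM in the acid group. It rose in all pairs (log2 fold change 2.78 ± 0.14, adjusted p = 2.85e-17) and was the only member of the list that was also higher than at pH 7.4 with IL-2 (log2 fold change 0.97 ± 0.13, adjusted p = 6.56e-08). Its chaperone gene Hjurp rose from 218 ± 62.3 to 472 ± 97.8 CPM (log2 fold change 1.10 ± 0.13, adjusted p = 6.08e-09), and the spindle motor gene Kif11 rose (log2 fold change 1.07 ± 0.18, adjusted p = 4.45e-06). Mki67, the proliferation marker Ki-67, held 303 ± 61.8 CPM at 0 h and 376 ± 56.5 CPM in the acid group, which did not pass (adjusted p = 0.135), and 1386 ± 120.2 CPM at pH 7.4 with IL-2. Compared with pH 6.6 without IL-2, 2 of the 36 were higher and 1 lower, beside 13.2% and 10.6% of all genes.

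Of 29 tested genes of cell cycle exit, which include CDK inhibitors as well as the D-type cyclins and their CDKs, 13 were higher and 10 lower, beside 30.5% and 38.0% of all genes. Cdkn1b, which encodes the CDK inhibitor p27, held 209.6, 113, 119, 249 and 242 CPM at 0 h and 534, 601, 697, 369 and 409.9 CPM in the acid group. All acid libraries were above the 0 h range (log2 fold change 1.48 ± 0.18, adjusted p = 1.93e-08). Mxd4, an antagonist of c-Myc, rose (log2 fold change 1.48 ± 0.11, adjusted p = 8.84e-14). Other CDK inhibitor genes fell: Cdkn2a held 25.7, 18.8, 17.3, 15.1 and 23.5 CPM at 0 h and 4.04, 3.72, 3.19, 5.35 and 5.16 CPM in the acid group (log2 fold change -2.24 ± 0.14, adjusted p = 4.65e-15), without overlap, and Cdkn2b fell from 37.9 ± 12.3 to 9.84 ± 1.0 CPM (log2 fold change -1.92 ± 0.12, adjusted p = 4.37e-15). Cdk4, which drives the cycle, fell as well (log2 fold change -1.24 ± 0.088, adjusted p = 8.86e-14). Myc (chr15:61985391-61990374, plus strand) held 241, 240.1, 250.4, 178 and 259.8 CPM at 0 h and 71.8, 45.9, 46.9, 55.6 and 53.9 CPM in the acid group. It fell (log2 fold change -2.09 ± 0.12, adjusted p = 2.39e-16), with replicate 1 the highest acid library. In cells held at pH 7.4 with IL-2 it fell too (log2 fold change -0.54 ± 0.11, adjusted p = 9.86e-05), and the acid cells with IL-2 held more Myc RNA than those without by 1.07 ± 0.12 on the log2 scale (adjusted p = 1.73e-08).

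**Figure D4:**
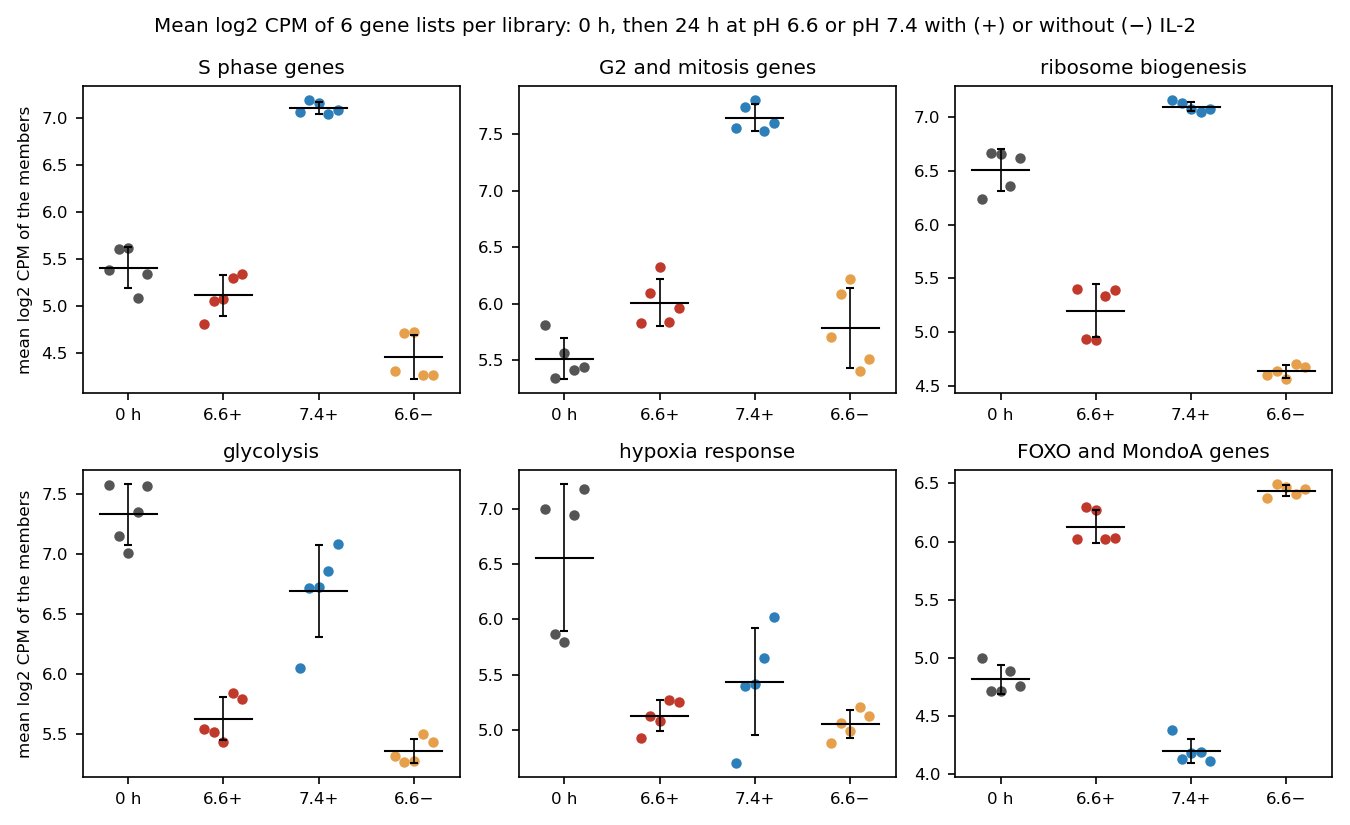
Mean log2 CPM of the tested members of 6 gene lists in single libraries, at 0 h (grey), pH 6.6 with IL-2 (red), pH 7.4 with IL-2 (blue) and pH 6.6 without IL-2 (orange), with the mean and SD of 5 libraries. S phase genes at pH 6.6 with IL-2 stay near 0 h while pH 7.4 with IL-2 is higher, ribosome biogenesis lies below 0 h at pH 6.6 and above it at pH 7.4, and 0 h replicates 2 and 3 are low for hypoxia genes.

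Ribosome biogenesis moved most uniformly. All 43 genes of the list fell, beside 38.0% of all genes, with a median of -1.37. In 41, beside 24.4% of all genes, no acid library reached the 0 h range. After 24 h at pH 7.4 with IL-2, 39 were higher and 1 lower than at 0 h, beside 29% and 30.9% of all genes. The median there was 0.60. Against pH 6.6 without IL-2, 33 were higher, beside 13.2% of all genes. Grwd1, an assembly factor of the large subunit, went from 29.5, 42.5, 36.6, 24.4 and 37 CPM to 8.96, 5.44, 4.95, 11.2 and 9.99 CPM (log2 fold change -2.10 ± 0.17, adjusted p = 8.98e-13). Gnl3, a nucleolar GTPase, fell similarly (log2 fold change -2.02 ± 0.15, adjusted p = 3.91e-13), as did Polr1b, a subunit of RNA polymerase I (log2 fold change -1.95 ± 0.15, adjusted p = 7.31e-13). The smallest change was that of Rrp1b (log2 fold change -0.39 ± 0.093, adjusted p = 0.000502). The mean log2 CPM of the list was 6.51 ± 0.19 (SD, n = 5) at 0 h and 5.20 ± 0.24 in the acid group. It was 7.10 ± 0.046 at pH 7.4 and 6.70 ± 0.12 at pH 7 with IL-2. Without IL-2 it was 4.64 ± 0.058 at pH 6.6, 4.86 ± 0.077 at pH 7 and 4.93 ± 0.086 at pH 7.4. The mean of the acid group with IL-2 lay between those of the other cultures with IL-2 and those without it, although its replicates 2 and 3 (4.94 and 4.93) were within the range of pH 7.4 without IL-2 (4.79 to 5.0). The sequence CACGTG, the E-box to which c-Myc binds, was present on either strand in 23.68% of the 38 list members with a RefSeq promoter (250 bases before to 50 after the start), 11.61% of tested genes and 8.09% of all 27025 promoters. A match is a description, not a site or a cause.

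Of 24 genes of nutrient transporters 15 fell and 6 rose, beside 38.0% and 30.5% of all genes. Slc7a5, the large neutral amino acid transporter LAT1, held 355, 393, 303, 310.1 and 292 CPM at 0 h and 60.8, 24.8, 22.7, 35.6 and 33.6 CPM in the acid group. The fall was large and without overlap (log2 fold change -3.30 ± 0.16, adjusted p = 1.8e-17), and replicate 1 was the highest acid library. At pH 7.4 with IL-2 its level was 294 ± 16.1 CPM (SD, n = 5), a log2 fold change of -0.16 that did not pass (adjusted p = 0.342). Its partner chain gene Slc3a2 fell (log2 fold change -0.26 ± 0.092, adjusted p = 0.0147). The call was lost without replicate 1, 4 or 5 (adjusted p = 0.327, 0.0534 and 0.198, with 0.00358 to 0.327 over the alternatives). It was also lost with RLE scaling (adjusted p = 0.0718), in DESeq2 (adjusted p = 0.0713) and with only the groups compared (adjusted p = 0.231). Without replicate 1 of the acid group alone the adjusted p was 0.075. The glutamine carrier gene Slc1a5 fell (log2 fold change -1.26 ± 0.094, adjusted p = 2e-13), and Slc1a4, which carries alanine and serine, fell from 26.5 ± 2.75 to 1.12 ± 0.670 CPM (log2 fold change -4.67 ± 0.29, adjusted p = 7.65e-15). Tfrc, the transferrin receptor that brings in iron, fell in acid (log2 fold change -1.35 ± 0.13, adjusted p = 5.2e-11) and rose at pH 7.4 with IL-2 (log2 fold change 1.82 ± 0.13, adjusted p = 1.54e-13). Slc5a3, a carrier of the osmolyte inositol, rose (log2 fold change 2.14 ± 0.18, adjusted p = 6.39e-12).

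Sterol and fatty acid synthesis genes fell almost throughout, 31 of 33 (27 without 0 h replicates 2 and 3), beside 38.0% of all genes. The median was -1.15. Cyp51, a demethylase of sterol synthesis, held 173, 306, 322, 251 and 275 CPM at 0 h and 79.3, 62.2, 65.7, 77 and 80.1 CPM in the acid group. The groups did not overlap, and 0 h replicates 2 and 3 were the highest (log2 fold change -1.84 ± 0.13, adjusted p = 9.17e-14). Scd1, a fatty acid desaturase, fell too (log2 fold change -2.39 ± 0.20, adjusted p = 1.33e-11). Hsd17b7 held 45.8 ± 22.8 CPM (SD, n = 5) at 0 h, 10.5 ± 3.42 CPM in the acid group and 1.49 ± 0.283 CPM without IL-2, and was higher with than without IL-2 at pH 6.6 (log2 fold change 2.83 ± 0.30, adjusted p = 2.34e-08). Compared with pH 6.6 without IL-2, 17 of the 33 were higher and 2 lower, beside 13.2% and 10.6% of all genes.

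Chaperones of the endoplasmic reticulum (ER) fell at pH 6.6 and rose at pH 7.4. Of 24 genes 21 fell and 1 rose from 0 h, beside 38.0% and 30.5% of all genes, with a median of -0.77. At pH 7.4 with IL-2, 14 were higher and 5 lower, beside 29% and 30.9% of all genes, with a median of 0.46. Hspa5, the main ER chaperone BiP, is shown with its promoter because the members moved together and several hold a known element. The 100 bases before its start (GRCm38.p6, chr2:34771990-34772089, plus strand, from RefSeq) hold the ER stress element, in capitals.
Hspa5: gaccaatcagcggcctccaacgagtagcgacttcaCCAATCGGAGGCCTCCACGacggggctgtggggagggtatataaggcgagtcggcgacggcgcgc
The element, searched on both strands, was present in 8 of 21 list members with a promoter (38.1%), 0.2% of tested genes and 0.14% of all promoters, and a match is a description, not a site or a cause. Hspa5 held 835, 1057, 1034, 1094 and 1382 CPM at 0 h and 443, 580.4, 573, 765 and 797 CPM in the acid group. No acid library reached the 0 h range (log2 fold change -0.79 ± 0.087, adjusted p = 1.38e-09), and replicates 4 and 5 were the highest acid libraries. Sdf2l1, a partner of BiP, fell from 49 ± 7.80 to 6.38 ± 2.18 CPM (log2 fold change -2.97 ± 0.13, adjusted p = 1.91e-18) and rose at pH 7.4 with IL-2 (log2 fold change 1.09 ± 0.12, adjusted p = 1.5e-09). Edem1, which hands misfolded proteins to degradation, was the member that rose (log2 fold change 0.37 ± 0.062, adjusted p = 3.45e-06).

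Amino acid synthesis genes and other targets of ATF4, the transcription factor of the amino acid response, fell. Of 34 genes 30 fell and 1 rose, beside 38.0% and 30.5% of all genes, with a median of -1.55. At pH 7.4 with IL-2 20 were lower and 4 higher, beside 30.9% and 29% of all genes, with a median of -0.47. Promoter stretches of Asns (60 bases up to its start, chr6:7693210-7693269, minus strand) and Chac1 (bases 220 to 141 before its start, chr2:119351022-119351101, plus strand), both GRCm38.p6 from RefSeq, are shown because both genes fell strongly and hold the amino acid response core TGATGNAA. Capitals mark the core, which lies on the opposite strand in Chac1.
Asns: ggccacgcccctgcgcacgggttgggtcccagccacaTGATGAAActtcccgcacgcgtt
Chac1: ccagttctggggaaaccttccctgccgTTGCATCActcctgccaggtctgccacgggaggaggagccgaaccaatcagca
The core was present on either strand in 10 of 28 list members with a promoter (35.71%), 2.73% of tested genes and 4.51% of all promoters. The list names targets of ATF4, so this share depends on that choice, and a match is a description, not a site or a cause. Asns, asparagine synthetase, held 125, 127, 117, 141 and 183 CPM at 0 h and 20.9, 14, 12.2, 20.7 and 18.4 CPM in the acid group. Every acid library was below every 0 h library (log2 fold change -3.02 ± 0.13, adjusted p = 6.02e-19), and at pH 7.4 with IL-2 it fell too (log2 fold change -0.62 ± 0.12, adjusted p = 3.46e-05). Chac1, which degrades glutathione, went from 9.66, 5.31, 2.32, 5.82 and 4.80 CPM to 0.462, 0.280, 0.294, 0.658 and 0.291 CPM (log2 fold change -3.74 ± 0.27, adjusted p = 1.39e-13). The serine pathway genes Psat1 (log2 fold change -1.91 ± 0.078, adjusted p = 2.63e-19) and Shmt2 (log2 fold change -2.48 ± 0.12, adjusted p = 1.04e-17) fell as well. Atf4 itself fell (log2 fold change -0.43 ± 0.075, adjusted p = 6.02e-06). Ddit3, the stress factor CHOP, held 41.1 ± 17.3 CPM at 0 h, 26.7 ± 2.20 CPM in the acid group and 7.89 ± 1.01 CPM at pH 7.4 with IL-2, so that it was lower than at 0 h (log2 fold change -0.58 ± 0.15, adjusted p = 0.000925) and higher than at pH 7.4 (log2 fold change 1.77 ± 0.16, adjusted p = 7.29e-12); with only the groups compared in the fit, the difference from 0 h did not pass (adjusted p = 0.0746, the highest of the alternatives, from 2.84e-08). Cth was at 1.02, 1.10, 1.03, 1.42 and 0.937 CPM at 0 h and 0, 0, 0.0419, 0 and 0 CPM in the acid group, too few reads for a fold.

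Glycolysis had the lowest median of the 28 lists. Of 25 tested genes 21 fell and 1 rose, beside 38.0% and 30.5% of all genes, with a median of -1.95. In 20, beside 24.4% of all genes, all acid libraries were below all 0 h libraries. With IL-2 at pH 7.4 18 were lower and 2 higher than at 0 h, beside 30.9% and 29% of all genes, with a median of -0.64. Against that group the acid cells were lower in 16 and higher in 3, beside 40.9% and 35.4% of all genes. Promoter stretches of Slc16a3 (chr11:120948977-120949066, plus strand) and Hk2 (chr6:82774455-82774544, minus strand), each the 90 bases before the start in GRCm38.p6 from RefSeq, are shown because both genes fell strongly and hold the core ACGTG of the hypoxia response element. Capitals mark the core, which lies on the opposite strand in Hk2.
Slc16a3: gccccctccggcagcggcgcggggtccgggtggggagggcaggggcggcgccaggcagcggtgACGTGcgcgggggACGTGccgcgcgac
Hk2: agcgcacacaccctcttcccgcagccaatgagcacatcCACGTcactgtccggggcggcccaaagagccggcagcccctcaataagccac
The core was present on either strand in 16 of 24 glycolysis promoters (66.67%) and 17 of 20 promoters of the hypoxia list (85.0%), against 29.43% of tested genes and 21.78% of all promoters, and it lies within the E-box CACGTG counted above. The hypoxia list names genes of that response, so its share depends on that choice, and a match is a description, not a site or a cause. Slc16a3 encodes the lactate and proton exporter MCT4 and held 331, 132, 108, 241 and 290.5 CPM at 0 h, with replicates 2 and 3 low. The acid libraries held 11.4, 13.1, 10.03, 18.3 and 16.4 CPM, all below that range (log2 fold change -4.05 ± 0.39, adjusted p = 6.12e-10). Hk2, a hexokinase that commits glucose to the pathway, held 294, 93.3, 80.8, 199 and 244 CPM at 0 h and 27.6, 15.2, 11.8, 28 and 27.1 CPM in the acid group. It fell (log2 fold change -3.0 ± 0.23, adjusted p = 2.01e-12), and 0 h replicates 2 and 3 were again low. Against pH 6.6 without IL-2, Hk2 was higher (log2 fold change 2.26 ± 0.26, adjusted p = 7.71e-08).

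Further down the pathway Tpi1, triose phosphate isomerase, held 1618, 1032, 953, 1216 and 1804 CPM at 0 h and 67.7, 65.5, 54.4, 107 and 96.7 CPM in the acid group. The fall was among the 3 largest of well expressed genes (log2 fold change -4.11 ± 0.21, adjusted p = 1.51e-16). Ldha, which makes lactate, fell from 3231 ± 586 to 438 ± 74.3 CPM (log2 fold change -2.89 ± 0.13, adjusted p = 1.35e-18). Pkm (log2 fold change -2.87 ± 0.13, adjusted p = 6.04e-18), Eno1 (log2 fold change -2.33 ± 0.14, adjusted p = 2.47e-15) and Pgam1 (log2 fold change -2.62 ± 0.17, adjusted p = 2.16e-14) fell too, with only 74.2%, 74% and 63.8% unique windows of 50 bases, so that part of their reads could not be counted. Aldoa fell from 4818 ± 1258 to 1246 ± 183 CPM (log2 fold change -1.95 ± 0.16, adjusted p = 5.25e-12). The exporter MCT1, Slc16a1 (log2 fold change -2.12 ± 0.12, adjusted p = 4.45e-16), and the chaperone of both exporters, Bsg (log2 fold change -2.42 ± 0.11, adjusted p = 3.11e-18), fell. Pdk2, a kinase that closes the entry of pyruvate into mitochondria, was the member that rose, at 2.54, 2.97, 2.49, 2.16 and 1.95 CPM at 0 h and 4.68, 6.72, 6.71, 6.09 and 5.75 CPM in the acid group (log2 fold change 1.31 ± 0.15, adjusted p = 3.17e-09). Between the acid group and pH 7.4 with IL-2, Aldoc differed by -0.25 ± 0.20 on the log2 scale and did not pass (adjusted p = 0.258). Hk2 was lower in the acid group than at pH 7.4 (log2 fold change -3.14 ± 0.23, adjusted p = 3.53e-13), as was Slc16a1 (log2 fold change -2.73 ± 0.12, adjusted p = 3.12e-19).

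**Figure D5:**
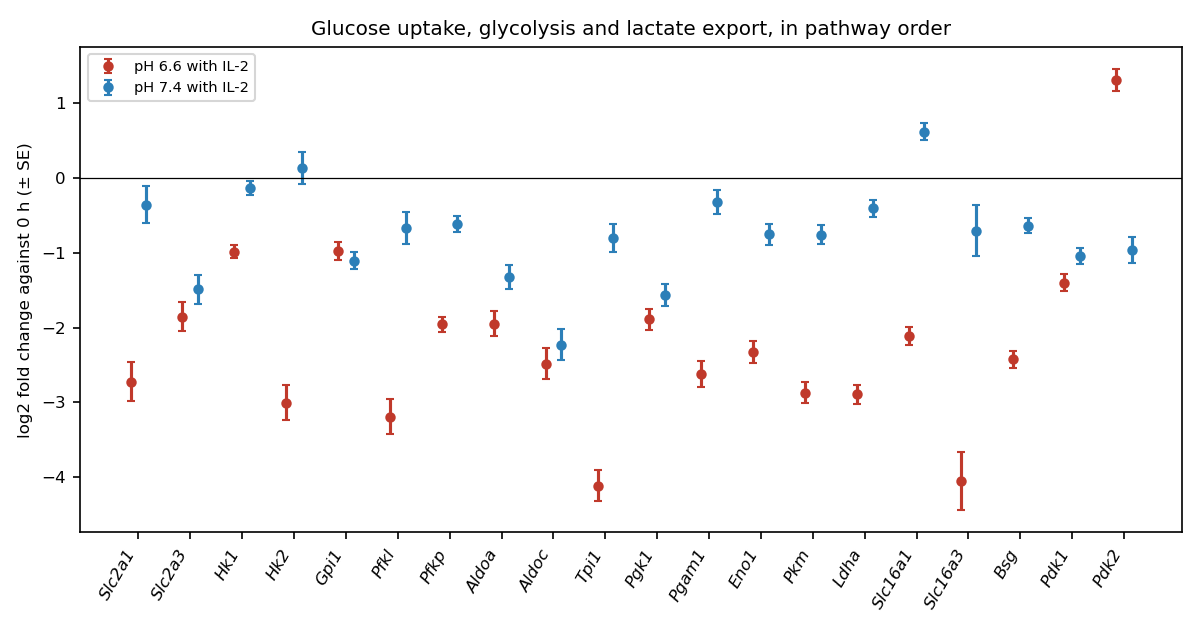
Log2 fold change against 0 h (± SE of the fit over 5 libraries a group) of 20 genes of glucose uptake, glycolysis and lactate export in pathway order, at pH 6.6 with IL-2 (red) and pH 7.4 with IL-2 (blue). Slc16a3 and Tpi1 lie lowest at pH 6.6, the points of Gpi1 and Aldoc at both pH values lie close together, and Pdk2 is the only gene plotted above 0 at pH 6.6.

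Of 23 genes of the wider hypoxia response 18 fell and 4 rose, beside 38.0% and 30.5% of all genes, with a median of -1.67. Without 0 h replicates 2 and 3, 19 fell and 3 rose. In cells held at pH 7.4 with IL-2, 20 were lower and 1 higher, beside 30.9% and 29% of all genes, with a median of -1.04. Between the acid group and pH 7.4 with IL-2, 7 were higher and 11 lower, beside 35.4% and 40.9% of all genes. The list median of that difference was -0.20. Ankrd37, a direct HIF target, showed the split at 0 h most sharply, with 104, 4.54, 3.99, 59.8 and 111 CPM. Its acid libraries held 1.16, 1.72, 1.97, 2.80 and 1.50 CPM, below each of the 0 h values (log2 fold change -4.75 ± 0.68, adjusted p = 9.07e-07), and 26.4% of its exons overlap a gene on the opposite strand. Egln3, the HIF prolyl hydroxylase PHD3, held 400.3, 113, 105, 365 and 467 CPM and 24.1, 26.8, 24.7, 33.3 and 35.9 CPM (log2 fold change -3.28 ± 0.34, adjusted p = 1.99e-09). P4ha2, a collagen prolyl hydroxylase, fell at pH 6.6 (log2 fold change -3.30 ± 0.22, adjusted p = 3.13e-14) and at pH 7.4 with IL-2 (log2 fold change -2.63 ± 0.21, adjusted p = 4.62e-12). Hif1a, the oxygen-regulated subunit itself, rose from 364 ± 124 to 744 ± 118 CPM (log2 fold change 1.06 ± 0.13, adjusted p = 7.31e-09).

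Mitochondrial respiratory subunits fell by small amounts, 28 of 41 with 3 higher, beside 38.0% and 30.5% of all genes. The median was -0.36 (-0.23 without replicate 5). With only the groups compared in the fit 16 fell. Cox5b (log2 fold change -0.82 ± 0.13, adjusted p = 7.29e-07) and Cox7b (log2 fold change -0.81 ± 0.11, adjusted p = 1.9e-07), subunits of complex IV, were among the lowest, and Sdha, of complex II, rose (log2 fold change 0.20 ± 0.052, adjusted p = 0.00125; adjusted p = 0.0556 with only the groups compared in the fit and from 8.25e-11 under the other alternatives). After 24 h at pH 7.4 with IL-2, 26 were higher and 2 lower than at 0 h, beside 29% and 30.9% of all genes.

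Sensors of protons moved in both directions. Of 28 tested genes of acid sensing and proton transport 11 rose and 15 fell, beside 30.5% and 38.0% of all genes. Gpr65, a proton-activated receptor of lymphocytes that raises cAMP, held 51.5, 52.4, 57.1, 57.7 and 56.5 CPM at 0 h and 36.5, 25.5, 31.7, 29.1 and 30.1 CPM in the acid group. It fell (log2 fold change -0.86 ± 0.089, adjusted p = 3.92e-10), and 24.7% of its exons overlap a gene on the opposite strand. Gpr132, a related receptor of the same family, held 127, 108, 113, 97.5 and 106 CPM and 241, 337, 352, 276 and 258 CPM. It rose clear of its spread (log2 fold change 1.40 ± 0.083, adjusted p = 1.05e-15), while Gpr4 was not tested, with at most 6 reads in a 0 h library. Chp1, a calcium-binding protein (log2 fold change 1.36 ± 0.064, adjusted p = 6.1e-18), and the bicarbonate importer gene Slc4a7 (log2 fold change 1.0 ± 0.16, adjusted p = 1.69e-06) rose. Carbonic anhydrases differed in direction, Car12 falling (log2 fold change -2.39 ± 0.19, adjusted p = 9.03e-13) and Car2 rising (log2 fold change 0.88 ± 0.076, adjusted p = 6.93e-12).

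Of 33 genes of cAMP signalling and early response 19 rose and 4 fell, beside 30.5% and 38.0% of all genes. Without 0 h replicates 2 and 3, 25 rose and 2 fell. Nr4a1, the orphan nuclear receptor NUR77, held 2.93, 2.67, 2.45, 1.06 and 1.68 CPM at 0 h and 7.92, 23, 17.1, 17.8 and 17.4 CPM in the acid group. Replicate 1 was the lowest acid library and still above all 0 h libraries (log2 fold change 2.90 ± 0.26, adjusted p = 1.77e-11). Nr4a2 rose (log2 fold change 1.93 ± 0.17, adjusted p = 6.48e-12), as did the cAMP phosphodiesterase genes Pde4b (log2 fold change 2.05 ± 0.14, adjusted p = 2.72e-14) and Pde4d (log2 fold change 1.94 ± 0.11, adjusted p = 7.7e-16). Jund fell (log2 fold change -2.33 ± 0.15, adjusted p = 1e-14), with opposite-strand overlap of 52.6% of its exons. Egr1 spread widely, at 204, 362, 311, 71.3 and 39.6 CPM at 0 h and 273, 312, 117, 683 and 833 CPM in the acid group, so that its log2 fold change of 0.43 did not pass (adjusted p = 0.503), and at pH 6.6 without IL-2 it held 21.5, 16.8, 21.9, 130.4 and 101 CPM, lower in each replicate (log2 fold change 3.01 ± 0.58, adjusted p = 0.000343).

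FOXO and MondoA targets had the highest median of the lists. Of 25 tested genes 22 rose and 1 fell, beside 30.5% and 38.0% of all genes, with a median of 0.99. At pH 7.4 with IL-2, 3 were higher and 19 lower than at 0 h, beside 29% and 30.9% of all genes, with a median of -0.73. Against pH 6.6 without IL-2 10 were lower, beside 10.6% of all genes. Txnip (ENSMUSG00000038393, chr3:96557957-96561883, plus strand), a MondoA target that restrains glucose uptake, held 202, 151, 161, 157 and 149.6 CPM at 0 h and 2116, 2511, 2512, 2317 and 2302 CPM in the acid group. No library of either group came near the other (log2 fold change 3.83 ± 0.10, adjusted p = 1.31e-24), and 19.4% of its exons overlap a gene on the opposite strand. Unlike most of the list it also rose at pH 7.4 with IL-2 (log2 fold change 1.44 ± 0.09, adjusted p = 7.56e-15). Its relative Arrdc4 went from 0.235, 0, 0.172, 0.122 and 0.117 CPM to 11.3, 8.20, 13.3, 11.2 and 11.6 CPM, with 0 h levels too low for a fold. Fbxo32 (log2 fold change 2.15 ± 0.12, adjusted p = 1.72e-16), Pik3ip1, an inhibitor of PI3 kinase (log2 fold change 1.66 ± 0.091, adjusted p = 1.79e-16), and Irs2 (log2 fold change 1.52 ± 0.19, adjusted p = 3.67e-08), all FOXO targets, rose. Cited2 fell (log2 fold change -1.13 ± 0.083, adjusted p = 1.45e-13). Foxo1 held 162 ± 20.5 and 195 ± 27.1 CPM (log2 fold change 0.25 ± 0.089, adjusted p = 0.0116). The FOXO core GTAAACA was present on either strand in 17.39% of 23 list promoters, 3.19% of tested genes and 4.05% of all promoters, and CACGTG in 26.09%, 11.61% and 8.09%. The list names FOXO and MondoA targets, so these shares depend on that choice, and a match is a description, not a site or a cause.

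Of 44 tested lysosome and autophagy genes 17 were higher and 13 lower, beside 30.5% and 38.0% of all genes, and 8 were lower with only the groups compared in the fit. Ulk1, the kinase that starts autophagy, held 32.4, 36.4, 32.5, 26.8 and 23.5 CPM at 0 h and 78.2, 145, 127, 108 and 104 CPM in the acid group, a rise without overlap (log2 fold change 1.88 ± 0.11, adjusted p = 1.8e-15). Flcn (log2 fold change 0.97 ± 0.10, adjusted p = 3.65e-10) and Map1lc3a (log2 fold change 1.06 ± 0.13, adjusted p = 1.19e-08) rose, and the hydrolase gene Ctsz fell (log2 fold change -1.26 ± 0.11, adjusted p = 1.96e-11).

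Among 29 tested BCL2 family and death receptor genes 15 rose and 8 fell, beside 30.5% and 38.0% of all genes. Genes for and against death moved in both directions. Bcl2l11, the pro-apoptotic BIM (chr2:128126038-128162547, plus strand), held 234, 363, 363, 275 and 252 CPM at 0 h and 967, 1204, 1229.7, 785 and 867 CPM in the acid group. All acid libraries were above the 0 h range (log2 fold change 1.76 ± 0.13, adjusted p = 8.73e-14), and at pH 7.4 with IL-2 it fell (log2 fold change -1.28 ± 0.12, adjusted p = 1.85e-10). Bmf, a relative of BIM, rose (log2 fold change 1.35 ± 0.14, adjusted p = 1.89e-10). Bcl2, which opposes BIM, held 919, 919.9, 994, 1136 and 708 CPM and 789, 452, 529, 498 and 504 CPM. It fell (log2 fold change -0.77 ± 0.10, adjusted p = 1.71e-08), with replicate 1 of the acid group inside the 0 h range, and the cells with IL-2 held more than those without by 1.60 ± 0.10 on the log2 scale (adjusted p = 7.79e-14). Bcl2l1 (BCL-XL) fell (log2 fold change -0.97 ± 0.082, adjusted p = 3.96e-12) and Mcl1 rose (log2 fold change 0.39 ± 0.076, adjusted p = 2.87e-05). Birc2, which limits death receptor signals, rose from 103 ± 13.6 to 395 ± 74.8 CPM (log2 fold change 1.93 ± 0.10, adjusted p = 8.13e-17). Of 28 tested p53 targets 18 rose and 5 fell, beside 30.5% and 38.0% of all genes (2 fell without replicate 1 and 3 without replicate 2). The rises were led by Trp53inp1 (log2 fold change 1.45 ± 0.18, adjusted p = 2.87e-08) and Gtse1 (log2 fold change 1.20 ± 0.15, adjusted p = 1.64e-08), the latter also a mitotic gene. Cdkn1a (p21) rose (log2 fold change 0.38 ± 0.14, adjusted p = 0.0169). The call was lost without replicate 2, 3 or 4 (adjusted p = 0.0968, 0.159 and 0.0621, with 3.13e-06 to 0.209 over the alternatives). It was also lost without the replicate block (adjusted p = 0.181), without 0 h replicates 2 and 3 (adjusted p = 0.209) and with only the groups compared (adjusted p = 0.0738).

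Of 34 interferon-stimulated genes 25 fell and 3 rose, beside 38.0% and 30.5% of all genes, with a median of -0.85. Isg15, a ubiquitin-like antiviral protein, held 8.69, 6.70, 10.4, 6.88 and 10.03 CPM at 0 h and 1.04, 0.760, 1.34, 1.44 and 1.08 CPM in the acid group, with no overlap (log2 fold change -2.90 ± 0.20, adjusted p = 5.76e-14). Ifit1 (log2 fold change -3.28 ± 0.29, adjusted p = 1.37e-11) and Oas2 (log2 fold change -2.21 ± 0.20, adjusted p = 1.15e-11) fell, and Ddx58 (RIG-I) rose (log2 fold change 0.31 ± 0.065, adjusted p = 8.89e-05). Of 26 NRF2 and redox genes 7 rose and 11 fell, near the 30.5% and 38.0% of all genes. Hmox1, heme oxygenase, fell (log2 fold change -2.07 ± 0.16, adjusted p = 2.78e-13), as did Prdx1 (log2 fold change -1.08 ± 0.12, adjusted p = 2.71e-09), while Prdx6 rose from 201 ± 33.5 to 608 ± 69.7 CPM (log2 fold change 1.60 ± 0.10, adjusted p = 3.89e-15).

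Klf10 had the largest rise among genes whose mean log2 CPM reached 3 and which moved one way in all 5 pairs. Klf10 (ENSMUSG00000037465, chr15:38291463-38300706, minus strand) encodes a zinc-finger repressor induced by TGF-beta and held 10.8, 17.6, 18.2, 17.6 and 14.1 CPM at 0 h and 139, 429, 448, 309.9 and 288 CPM in the acid group. Replicate 1 was the lowest library in both groups, and the groups did not overlap (log2 fold change 4.31 ± 0.29, adjusted p = 1.42e-13, 4.51 without replicate 1). Its relative Klf11 rose too (log2 fold change 3.0 ± 0.22, adjusted p = 3.72e-13). Tnfaip3, the A20 protein that ends NF-kB signals, held 78.9, 38.5, 37.3, 61 and 54.3 CPM and 533, 792, 677, 538 and 594 CPM (log2 fold change 3.55 ± 0.16, adjusted p = 1.91e-18). With IL-2 at pH 7.4 Tnfaip3 stayed at 44.6 ± 6.25 CPM (SD, n = 5), and without IL-2 at pH 6.6 it was 953 ± 98.4 CPM. Bend4 (log2 fold change 3.79 ± 0.14, adjusted p = 2.78e-20), Coq8a, a kinase-like protein of coenzyme Q synthesis (log2 fold change 3.68 ± 0.24, adjusted p = 3.01e-14), and Klhl24 (log2 fold change 2.78 ± 0.15, adjusted p = 1.06e-16) completed the largest rises with Zhx2, Dtx4, Art4, Ldlrad4 and Cpd, whose log2 fold changes were 2.83, 2.83, 2.84, 2.89 and 2.70. Of these Ldlrad4 has 52.1% of its exons under a gene on the opposite strand, and Cpd was higher at pH 7.4 with IL-2 as well (1.79).

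Among genes whose mean log2 CPM reached 3 and which moved one way in all 5 pairs, the largest fall was that of Ak4, a mitochondrial adenylate kinase and hypoxia gene, with 99.4, 25.2, 27.4, 92.6 and 134 CPM at 0 h and 3.18, 2.20, 3.31, 4.85 and 5.54 CPM in the acid group. Replicates 2 and 3 were low at 0 h and still above all acid libraries (log2 fold change -4.26 ± 0.37, adjusted p = 3.61e-11). Bcat1, which starts the breakdown of branched-chain amino acids, fell from 34.3 ± 0.623 to 2.97 ± 0.959 CPM (log2 fold change -3.55 ± 0.15, adjusted p = 7.52e-19) and had a log2 fold change of 0.35 at pH 7.4 with IL-2. The fatty acid carrier gene Fabp5 fell (log2 fold change -3.49 ± 0.14, adjusted p = 2.82e-19) and had a log2 fold change of 0.32 at pH 7.4 with IL-2. Rgs11, Endou, Unc13a and Acvrl1 fell at pH 6.6, with log2 fold changes of -4.19, -3.85, -3.43 and -3.39. In cells held at pH 7.4 with IL-2 their log2 fold changes from 0 h were -2.56, -2.22, -2.04 and -2.18. Mt1, a metal-binding protein, fell (log2 fold change -3.55 ± 0.17, adjusted p = 8.33e-18) and was 82.7 ± 18.7 CPM at pH 7.4 with IL-2.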

How the data were processed

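Polyadenylated RNA of 35 mouse CD8+ T cell libraries was sequenced as single reads. The authors deposited raw read counts per gene, not normalized. The submitters' processing notes name cutadapt 1.8, STAR 2.5.2b, HTSeq 0.6.1 and GRCm38 without roles; the annotation and strand setting are not given in the sources used here. Closing entries that name no gene were left out (reads without a feature were 2.58 to 5.68% of entries at 0 h and 7.34 to 8.83% at pH 6.6 with IL-2). Symbols and coordinates matched GENCODE M21 for 48349 of 48709 identifiers.

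In R 4.3.3, edgeR 4.0.16 kept 13819 genes (filterByExpr, minimum count 10), scaled them by TMM and fitted a robust quasi-likelihood model (35 libraries, 7 groups) that also held the replicate number as a block, because the study's statistics use paired tests. P-values were adjusted by Benjamini-Hochberg over all genes tested, with 0.05 as threshold. SE is the log2 fold change over the square root of F. On simulated data of 13412 genes, 56 of 67 genes changed by 0.5, 66 of 67 by 1 and 66 of 66 by 2 (log2) were recovered. Of unchanged genes, 8 of 13212 were called. The simulation gave all genes the same relative spread, no replicate effect and few changes. These rates therefore need not hold for the real libraries, where 68.5% of genes passed against 0 h.

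The members and lists were chosen with earlier results of these data known. Named were the 15 largest rises and falls with mean log2 CPM of at least 3 and 1 direction in 5 pairs, up to 4 genes per direction of each list, and chosen members of the lists; some of these genes are not reported here. Alternatives were RLE scaling, a looser and a stricter filter, no block, each replicate left out, only the groups compared, DESeq2 1.42.0 and a log2 fold change of at least 1, and, added after seeing the data, 0 h replicates 2 and 3 or replicate 1 of pH 6.6 with IL-2 left out. No 2 libraries of a group agreed within sampling noise (70 pairs, lowest chi-square per degree of freedom 6.65). Multiply aligned reads carry no gene in these counts, so the share of 50-base windows found once was computed for each gene's transcripts.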

Additional observations from a re-analysis of the deposited data

Results flagged for a closer look

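In 198 groups of 5 libraries tested, 14 held a library whose gap to its nearest neighbour was above Dixon's critical value of 0.71 of the range, and chance gives about 1 in 20. At 0 h, replicate 1 was highest for Txnip (202 CPM, others 149.6 to 161) and Cenpa (84.5 CPM, others 45.8 to 55.1) and lowest for Nr4a3 (10.7 CPM, others 18.1 to 21 CPM). Replicate 4 was lowest for Myc (178 CPM, others 240.1 to 259.8). At pH 6.6 with IL-2, replicate 1 was lowest for Coq8a (27.2 CPM, others 65.8 to 75.8) and Klf11 (28.7 CPM, others 42.8 to 48.2). The same library was highest for Ldlrad4 (86.3 CPM, others 34.4 to 42.1), Cpd (86.5 CPM, others 29.6 to 45.9) and Bcl2 (789 CPM, others 452 to 529). Replicate 4 was lowest for Klf2 (10.2 CPM, others 16.6 to 18).

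Among mean log2 CPM values of lists, 0 h replicate 1 was highest for memory and homing genes (5.85, others 5.60 to 5.66), and 0 h replicate 5 was lowest for acid sensing and proton transport (4.44, others 4.64 to 4.67). Replicate 1 at pH 6.6 with IL-2 was lowest for cell cycle exit genes (6.28, others 6.46 to 6.51) and p53 targets (5.70, others 6.07 to 6.17).

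In 10 lists the mean log2 CPM moved one way from 0 h in every pair at pH 6.6 with IL-2 and the opposite way in every pair at pH 7.4 with IL-2; this difference between lists was not tested, and the differences share the 0 h libraries. Lists higher at pH 6.6 were FOXO and MondoA genes (1.31 at pH 6.6 and -0.62 at pH 7.4), memory and homing genes (0.63 and -0.55), p53 targets (0.35 and -0.30), BCL2 family and death receptors (0.21 and -0.14) and lysosome and autophagy (0.13 and -0.30). Lists lower at pH 6.6 were ribosome biogenesis (-1.31 and 0.59), interferon-stimulated genes (-0.96 and 0.28), ER chaperones (-0.84 and 0.23), NRF2 and redox genes (-0.37 and 0.16) and mitochondrial respiratory subunits (-0.30 and 0.31).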

How the results depend on the processing

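Of 235 named genes and 3044 values under the alternatives, 2953 kept the direction and the side of the threshold, 89 (25 genes) no longer passed, 2 (Mki67) passed, and no gene that had passed changed sign. A log2 fold change of at least 1 left 3134 genes against 0 h (1224 higher and 1910 lower), 4753 against pH 7.4 with IL-2, 2091 at pH 7.4 with IL-2 against 0 h and 516 against pH 6.6 without IL-2. Fitting only the groups compared gave 5369 genes for the last comparison, against 3278, and leaving out each replicate gave 2119 to 2630; the cause was not tested. For pH 6.6 with IL-2 against 0 h, leaving out each replicate gave 8815 to 9194 genes, the stricter filter 7908, only the groups compared 7571, DESeq2 9499 and RLE scaling 9451. The split by direction moved more than these totals. It was 4210 higher and 5253 lower in the main fit, 4634 and 4817 with RLE scaling, and 4658 and 4841 with DESeq2. The shares of 30.5% and 38.0% set beside the lists are those of the main fit. Without pH 6.6 with IL-2 replicate 1 the count was 9259, and 2526 against pH 6.6 without IL-2. Without the replicate block 8991 genes passed against 0 h, 10083 against pH 7.4 with IL-2, 7576 at pH 7.4 against 0 h and 2415 against pH 6.6 without IL-2; same-numbered libraries of the first pair of groups correlated in their deviations at 0.246, 0.181, 0.138, -0.0116 and 0.137 (different numbers, median -0.0482), and 4 libraries correlated best with their own number. Of the 28 list medians 24 kept their sign under all 13 alternatives; those of inhibitory receptors (-0.18 to 0.11), costimulatory receptors (-0.06 to 0.15), NRF2 genes (-0.14 to 0.01) and chemokine receptors (-0.29 to 0.05) did not. Depth limits low genes: 20 list members had too few reads to be tested.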
